A study of Mus musculus with 16 samples.

Results

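Integrins are the receptors with which animal cells hold on to the extracellular matrix, and focal adhesions are the protein plaques that tie them to the actin cytoskeleton. The 36 mouse genes described here encode 19 integrin subunits, 12 α and 7 β, and 17 components of focal adhesions. They were chosen by gene symbol from textbook function, not by a measured value, out of 56748 genes in a table of RNA-Seq counts. Earlier results of these data were known when the choice was made. All 36 had a row in the table and at least 1 read. Of these, 30 had a mean normalized count of at least 10 over the 16 samples, which is the number of reads of a gene after scaling every library to the mean library size, and 23 had at least 1000.

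The counts came from the cell line TM4, which is of mouse testis origin and Sertoli-like; Sertoli cells are the somatic cells that support germ cells. Cells were seeded and transfected 24 h later with 2.5 µg of plasmid per well, and RNA was isolated after a further 24 h. The plasmid was the empty vector pcDNA3.1-HA (EV, 6 samples), carried *gdf6Y*, a TGF-beta family ligand gene of the turquoise killifish (5 samples), or carried the mutant variant *gdf6Y del9*, which has a short in-frame deletion in the prodomain (5 samples). All groups received plasmid with a lipid reagent, in a transient transfection whose share of transfected cells was not analysed here. In bulk samples like these, fewer cells with a change and a smaller change per cell cannot be told apart. Reads of the fish transgene were not counted on the mouse genes, so its level was not analysed here. No label says that replicates were separate cultures, so the p-values rest on samples whose spread may be technical. The total count per sample was between 21486850 and 26444903. Of 9 Sertoli cell markers, *Gata4* and *Kitl* had mean counts with EV of 831 and 707, whereas *Wt1* and *Dmrt1* had no read in any sample and *Fshr* and *Amh* stayed under 10. The summed count of the Sertoli list was 1652 to 1728 with EV, 1471 to 1585 with *gdf6Y* and 1545 to 1698 with *gdf6Y del9*, and its part in the results below was not tested. Markers of Leydig cells (summed count 19.3 to 35.8), germ cells (0 to 5.47) and endothelium (5.83 to 15.4) were near 0. The 4 smooth muscle and myoid markers summed to 4478 to 4714 with EV, 4710 to 5057 with *gdf6Y* and 4571 to 4840 with *gdf6Y del9*, nearly all of it *Acta2*, and their part was not tested either.

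An integrin is a pair of an α and a β subunit, each with a large extracellular head and a short tail inside the cell. The α subunit largely sets which matrix protein is bound, such as collagen, laminin or proteins with the RGD motif like fibronectin and vitronectin. The β tail binds talin and kindlin, which switch the receptor on. Talin recruits vinculin and holds actin, and paxillin, focal adhesion kinase, Src, p130Cas and the complex of Ilk, PINCH and parvin carry signals from the site. In the testis, Sertoli cells rest on a basement membrane rich in laminin. Integrin αv with β6 or β8 is also known for releasing latent TGF-beta from its propeptide.

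TM4 cells expressed the subunits of fibronectin, laminin and vitronectin receptors and almost none of the collagen receptors. Levels between genes are compared here as RPKM, the reads of a gene per kilobase of exonic sequence, scaled for library size. Exonic sequence is the union of all annotated exons of a gene, which can be longer than the transcript the cells make. The order of genes by RPKM therefore depends on the annotation. *Itgb1*, the β1 subunit that pairs with most α subunits, had 213 ± 2.05 RPKM (SD, n = 6) with EV and made up 90.1 ± 0.15% (SD, n = 6) of the RPKM of all β subunits. Its share was 90.2 ± 0.37% over the 5 *gdf6Y* samples and 90.3 ± 0.27% over the 5 *gdf6Y del9* samples (SD). The next β subunits were *Itgb5*, which pairs with αv, at 18.7 RPKM with EV, *Itgb8* at 1.87 and *Itgb3* at 1.64. *Itgb7* had 0.668 RPKM and *Itgb4*, a laminin receptor subunit of hemidesmosomes, 0.415 RPKM. Counted reads of *Itgb6* came to 29 over all 16 samples.

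Among the α subunits, *Itga5*, the fibronectin receptor subunit, stood highest at 52.2 ± 1.25 RPKM (SD, n = 6) with EV. It was followed by *Itga3* at 37.9, *Itgav* at 26.9 and *Itga6* at 12.4 RPKM. *Itga7*, which like *Itga3* and *Itga6* binds laminin, had 0.986 RPKM. The collagen-binding subunits *Itga10* and *Itga2* had 0.163 and 0.146 RPKM, and *Itga1* and *Itga11* had 31 and 17 reads over all samples. *Itga4*, *Itga8* and *Itga9* had 1, 4 and 3 reads in all. All α subunits together summed to 131 ± 1.43 RPKM (SD) over the 6 EV samples, 125 ± 2.79 RPKM over the 5 *gdf6Y* samples and 131 ± 2.61 RPKM over the 5 *gdf6Y del9* samples. In every group this sum was below that of *Itgb1* alone. Of the integrins typical of blood cells, *Itgam* had no read, and *Itgal*, *Itgax* and *Itgad* had mean counts under 10, while *Itga2b*, *Itgae* and *Itgb2* had 106, 25.6 and 17.6 with EV. The 8 genes of that list summed to 126 to 170 with EV, 139 to 176 with *gdf6Y* and 131 to 200 with *gdf6Y del9*.

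Of the adhesion components, both α-actinin genes, the main talin gene and vinculin stood highest by this measure of RPKM. With EV, *Actn4* had 73.3, *Tln1* 66.4, *Actn1* 56.5 and *Vcl* 53.3 RPKM. The EV samples of *Itgb1*, *Actn4*, *Tln1* and *Actn1* did not overlap in this order, whereas *Actn1* and *Vcl*, and *Vcl* and *Itga5*, overlapped. *Ilk* followed at 49.0 RPKM. *Zyx* (29.2 RPKM), *Fermt2* (27.6 RPKM) and *Itgav* overlapped with their neighbours, as did *Vasp* (23.3 RPKM), *Tns3* (22.5 RPKM) and *Bcar1* (21.7 RPKM), and *Lims1* (19.6 RPKM), *Ptk2* (19.5 RPKM) and *Itgb5*. *Src*, *Parva* and *Pxn* lay between 9.18 and 11.6 RPKM. The second talin gene, *Tln2*, had 5.75 RPKM and *Tns1* 4.32 RPKM.

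**Figure D1:**
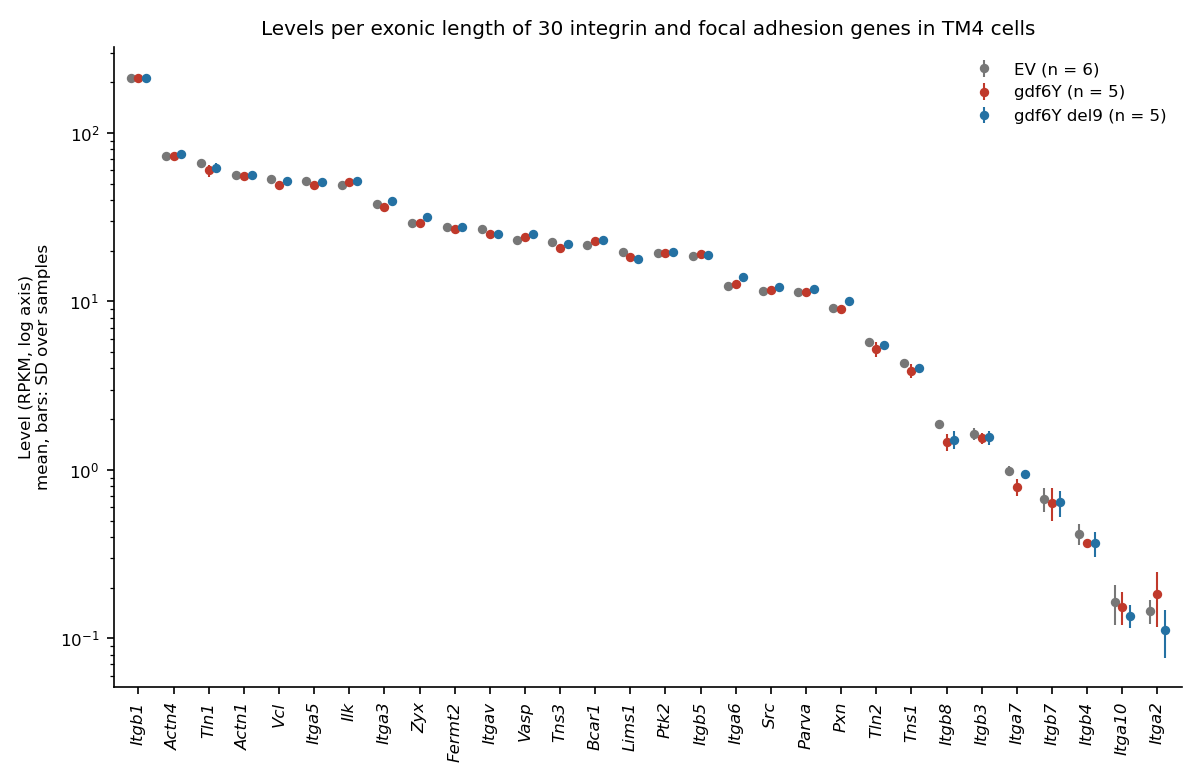
Level per exonic length (RPKM, log axis) of the 30 genes with a mean normalized count of at least 10, in the order of their EV level, with the mean of each group as a point and the SD over samples as a bar. *Itgb1* stood at 213 RPKM and *Itga2* at 0.146 RPKM with EV, and the groups lay close together for each gene compared with the range between genes.

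The comparison of *gdf6Y* with EV sets the plasmid with the ligand gene against the plasmid without an insert. Here the called changes went down. *Itgb8*, *Itga7*, *Itgav* and *Itga5* among the integrins and *Tln1*, *Tln2*, *Vcl*, *Tns1*, *Tns3* and *Lims1* among the adhesion components were lower with *gdf6Y*, 10 of the 35 genes tested, and 0 were higher. The changes were small, with log2 fold changes from -0.35 for *Itgb8* to -0.08 for *Itga5*. Genes were called at an adjusted p below 0.05 in edgeR's quasi-likelihood test, over all genes. The smallest p-values depended strongly on the setting. For *Itgb8* the adjusted p was 3.15e-09 in this test and 0.00181 in edgeR after filterByExpr, a filter for low counts. For *Tln1* it was 3.19e-06 and 0.0248, so such p-values are not a measure of the spread between samples alone. Of all 26316 genes tested, 3.38% were called lower and 1.7% higher. Highly counted genes were called more often. At mean counts of 1000 or more there were 5430 genes, of which 12.1% were lower and 6.26% higher, while 8 of the 23 genes of the list above that count were lower (34.8%) and 0 higher. The median log2 fold change of the 30 genes was -0.05, and it was 0.00085 over all 12578 genes counted at 10 or more on average. A replicate block treats samples with the same replicate number as pairs, though no label states such a pairing. With it, *Bcar1* was also called, higher with *gdf6Y*, and all 10 lower genes were called again (background 4.71% lower and 3.12% higher). DESeq2 called 9 lower and 1 higher, without *Tln2*.

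The comparison of *gdf6Y* with *gdf6Y del9* asks which changes depend on the intact prodomain, and few of the 36 genes differed. *Itga2* was higher with *gdf6Y*, and *Itga6* and *Pxn* were lower. The 10 genes called lower with *gdf6Y* against EV were not called here. Of all 25878 genes tested, 0.599% were higher and 0.41% lower, and in the class counted at 1000 or more these shares were 1.07% and 1.44%, against 0 and 2 of the 23 genes of the list. The replicate block raised the count from 3 to 8, of which 7 were lower with *gdf6Y* (background 1.44% lower and 1.12% higher). It kept the 3 calls and added *Itga3*, *Itga7*, *Vcl*, *Zyx* and *Tns3*. DESeq2 called 0 of them, with 8 at an unadjusted p below 0.05, and edgeR after filterByExpr also called 0, with 8 at an unadjusted p below 0.05. Without del9 replicate 3 or without del9 replicate 5, edgeR called 0 of the 36, with 9 at an unadjusted p below 0.05 in each fit. The median of the 30 genes was -0.04 against -0.0042 over all genes, with 22 negative and 8 positive values.

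*gdf6Y del9* against EV sets the mutant variant against the empty vector, and the list changed in both directions. *Itga6*, *Pxn*, *Zyx*, *Vasp*, *Bcar1* and *Ilk* were higher with the mutant variant and *Itgb8*, *Lims1*, *Itgav*, *Tln1* and *Tns1* lower, 11 of 36 genes. Log2 fold changes ran from -0.30 to 0.17. Of all 26226 genes tested, 4.82% were higher and 4.43% lower, and in the class counted at 1000 or more 17.2% and 11.6%. Of the 23 genes of the list above that count, 6 were higher (26.1%) and 4 lower (17.4%). The median of the 30 genes was -0.02, beside 0.0053 over all genes. The 5 genes called lower here were also called lower with *gdf6Y* against EV. This comparison and that of *gdf6Y* with EV share the EV samples, and the 2 comparisons of *gdf6Y* share its samples, so calls that recur between them are not independent.

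**Figure D2:**
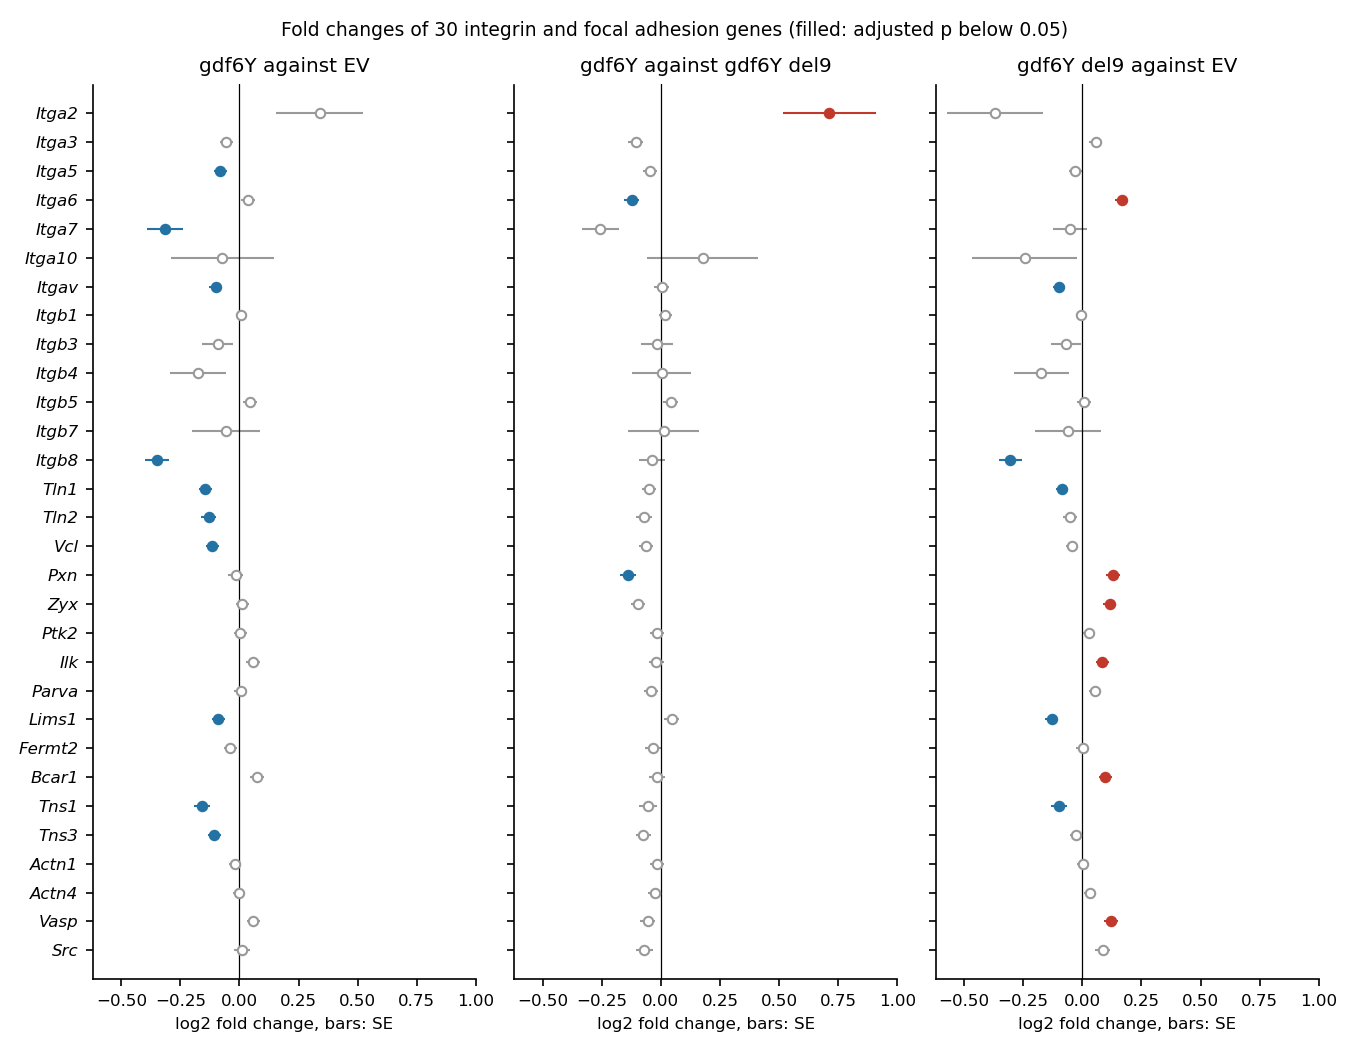
Log2 fold change (x axis, bars: SE) of the 30 genes with a mean normalized count of at least 10 in the 3 comparisons, with filled points for an adjusted p below 0.05, red for higher and blue for lower in the group named first. Filled points lie left of 0 in the first panel (10 genes), are 3 in the second and lie on both sides in the third (6 right, 5 left).

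*Itgb8* (chr12:119121748-119202584 of GRCm39) encodes β8, the partner of αv that binds latent TGF-beta. Its normalized counts with EV were 498 at the lowest, 513 at the median and 547 at the highest. The *gdf6Y* samples had 485, 374, 405, 407 and 365, and the *gdf6Y del9* samples 463, 481, 366, 408 and 379. Every sample with either insert was below every EV sample. Its log2 fold change was -0.35 ± 0.05 (SE) for *gdf6Y* against EV (edgeR, adjusted p = 3.15e-09) and -0.30 ± 0.05 for *gdf6Y del9* against EV (edgeR, adjusted p = 1.13e-07). Between *gdf6Y* and *gdf6Y del9* it was -0.04 (95% interval -0.15 to 0.07), and the groups overlapped. The SE behind this interval was 0.056, and it was 0.081 after filterByExpr and 0.087 in DESeq2, which give wider intervals. The calls against EV held without each replicate in turn and with the gene length correction described below. The other β subunits with at least 10 counts, *Itgb1*, *Itgb3*, *Itgb4*, *Itgb5* and *Itgb7*, were not called in any comparison. For *Itgb1*, with mean counts of 31314, 31434 and 31156 in the order EV, *gdf6Y* and *gdf6Y del9*, the 95% interval of the log2 fold change of *gdf6Y* against EV was -0.04 to 0.05.

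*Itgav* (chr2:83554403-83637260) encodes αv, the subunit shared by the vitronectin receptors and by αvβ8. It had 8008, 8143 and 8380 counts at the lowest, median and highest of the EV samples. The *gdf6Y* samples had 8146, 7329, 7353, 7873 and 7345, and the *gdf6Y del9* samples 7485, 8105, 7447, 7559 and 7499. In each insert group 4 of 5 samples lay below all EV samples, and *gdf6Y* replicate 1 and del9 replicate 2 lay within the EV range. The log2 fold change was -0.10 ± 0.03 against EV for *gdf6Y* (edgeR, adjusted p = 0.00586) and -0.10 ± 0.03 for *gdf6Y del9* (edgeR, adjusted p = 0.00338). The first call was lost without *gdf6Y* replicate 3 (edgeR, adjusted p = 0.0592), and both were lost with the gene length correction (edgeR, adjusted p = 0.207 and 0.0548).

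*Itga5* (chr15:103252713-103275270), the α subunit of the fibronectin receptor, had the largest adjusted p of the 10 calls. Its lowest, median and highest EV counts were 6653, 6880 and 7093. It had 6692, 6486, 6405, 6436 and 6297 with *gdf6Y*, where replicate 1 was within the EV range, and 6750, 6560, 6822, 6563 and 6794 with *gdf6Y del9*. The log2 fold change of *gdf6Y* against EV was -0.08 ± 0.03 (edgeR, adjusted p = 0.0496). This call was lost in 8 of the 11 fits that leave out a replicate, and its adjusted p was 0.00954 with the gene length correction and 0.00568 with the block.

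*Itga7* (chr10:128769621-128794169), a laminin-binding subunit best known from muscle, was lowest with *gdf6Y*. It had 185, 202 and 218 counts at the lowest, median and highest with EV, and 212, 192, 186, 194 and 186 with *gdf6Y del9*. The *gdf6Y* samples had 184, 162, 157, 170 and 135. All 5 lay below every EV and every *gdf6Y del9* sample, replicate 1 by the smallest margin. The log2 fold change was -0.31 ± 0.08 against EV (edgeR, adjusted p = 0.00156) and -0.26 ± 0.08 against *gdf6Y del9* (edgeR, adjusted p = 0.0894, and 0.0137 with the replicate block). The difference from *gdf6Y del9* was thus not called, with an adjusted p of 0.358 in DESeq2 and 0.248 in edgeR after filterByExpr. Between *gdf6Y del9* and EV the log2 fold change was -0.05 (95% interval -0.19 to 0.09).

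*Itga6* (chr2:71575960-71689757), which forms laminin receptors with β1 and β4, was higher with *gdf6Y del9*. The EV samples ran from 3263 through 3413 at the median to 3726. With *gdf6Y* the counts were 3422, 3760, 3578, 3544 and 3528, close to EV. With *gdf6Y del9* they were 3615, 4233, 3994, 3652 and 4005, of which replicates 1 and 4 fell within the EV range. The log2 fold change was 0.17 ± 0.03 for *gdf6Y del9* against EV (edgeR, adjusted p = 3.27e-07) and -0.12 ± 0.03 for *gdf6Y* against *gdf6Y del9* (edgeR, adjusted p = 0.018, 0.000132 with the block and 0.316 in DESeq2). The second call was lost in 5 of the 10 fits that leave out a replicate, with an adjusted p of up to 0.313 without del9 replicate 2. *Itga3*, the most abundant laminin-binding subunit, had mean counts of 5437, 5220 and 5642 in the order EV, *gdf6Y* and *gdf6Y del9*. Between the insert groups, *gdf6Y* relative to *gdf6Y del9*, its log2 fold change was -0.11 ± 0.03 (edgeR, adjusted p = 0.0586, 0.000387 with the block and 0.0644 in DESeq2).

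*Itga2* (chr13:114969617-115068636), a collagen-binding subunit, was counted at 18.6 to 48.3 with *gdf6Y* and 11.5 to 26.6 with *gdf6Y del9*, beside 22 to 32.9 with EV. The *gdf6Y* samples were 48.3, 18.6, 30.8, 37.8 and 24.7 and the *gdf6Y del9* samples 24.8, 11.5, 20.3, 26.6 and 15.5, so the groups overlapped. In each numbered pair the *gdf6Y* sample was the higher. The log2 fold change was 0.71 ± 0.20 (edgeR, adjusted p = 0.0351), and it was lost in 5 of 10 fits without a replicate. *Itga2* and *Itga5* come after the first 15 genes by adjusted p and were given in full after their values were seen.

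The actin linkers were the role with the most calls against EV with *gdf6Y*, 5 of 7 genes, all lower. Of all genes counted at 1000 or more, 12.1% were called lower. With the gene length correction described below, *Tln1* and *Vcl* kept the call, and *Tln2*, *Tns1* and *Tns3* lost it. *Tln1* (chr4:43531513-43562691), the main talin gene here, had 15527, 15973 and 16633 counts at the lowest, median and highest with EV. The *gdf6Y* samples had 16210, 14856, 14645, 13465 and 13340, and the *gdf6Y del9* samples 13787, 16482, 15522, 14402 and 15167. Only *gdf6Y* replicate 1 lay within the EV range among the *gdf6Y* samples. This gave a log2 fold change of -0.14 ± 0.03 for *gdf6Y* (edgeR, adjusted p = 3.19e-06) and -0.09 ± 0.02 for *gdf6Y del9* (edgeR, adjusted p = 0.00691), the latter lost without del9 replicate 1 (adjusted p = 0.107) or 4 (adjusted p = 0.0626).

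*Vcl* (chr14:20979449-21083758) encodes vinculin, which binds talin under tension. Its EV counts were 10715 at the lowest, 11262 at the median and 11513 at the highest. With *gdf6Y* it had 10588, 10547, 10463, 10272 and 9985, all below the EV samples. With *gdf6Y del9* it had 10561, 11158, 11026, 10796 and 10877, of which all but replicate 1 lay within the EV range. For *gdf6Y* the log2 fold changes were -0.11 ± 0.03 against EV (edgeR, adjusted p = 0.000556) and -0.06 ± 0.03 against *gdf6Y del9* (edgeR, adjusted p = 0.497, 0.039 with the block and 0.408 in DESeq2). The call against EV held without each replicate in turn and with the gene length correction.

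*Tns1* and *Tns3* encode tensins, which bind β tails and actin. *Tns1* (chr1:73949390-74163731) had 1656, 1813 and 1944 counts at the lowest, median and highest with EV, 1805, 1465, 1641, 1692 and 1442 with *gdf6Y*, and 1737, 1695, 1677, 1701 and 1586 with *gdf6Y del9*. The groups overlapped, and the log2 fold change was -0.16 ± 0.03 for *gdf6Y* (edgeR, adjusted p = 0.000199, and 0.0573 after filterByExpr) and -0.10 ± 0.03 for *gdf6Y del9* against EV (edgeR, adjusted p = 0.0303, lost without EV replicate 1, 3 or 4 or del9 replicate 3 or 5). *Tns3* (chr11:8381631-8614681) had 6384, 6546 and 6744 with EV, 6284, 6220, 6294, 6005 and 5560 with *gdf6Y*, and 6182, 6565, 6675, 6248 and 6428 with *gdf6Y del9*. All *gdf6Y* samples lay below EV. Its log2 fold change against EV was -0.11 ± 0.03 (edgeR, adjusted p = 0.00347, and 0.132 without *gdf6Y* replicate 5). *Tln2* (chr9:67124369-67466985), the second talin gene, had 2440, 2610 and 2746 with EV, 2728, 2283, 2341, 2437 and 2067 with *gdf6Y*, and 2495, 2652, 2470, 2414 and 2489 with *gdf6Y del9*. Its log2 fold change of *gdf6Y* against EV was -0.13 ± 0.03 (edgeR, adjusted p = 0.00163, 0.142 without *gdf6Y* replicate 5, 0.0708 in DESeq2 and 0.095 after filterByExpr). *Actn1* and *Actn4*, the α-actinins that cross-link actin, were not called in any comparison, with log2 fold changes of *gdf6Y* against EV of -0.02 (95% interval -0.07 to 0.03) and -0.00 (-0.05 to 0.05).

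The order of the *gdf6Y* samples recurred across these genes, and replicate 1 also stood apart over the whole library. Over 12584 genes, its chi-square per gene against the other *gdf6Y* samples was 7.60 to 11.5. Pairs of the other *gdf6Y* samples had 2.67 to 4.42. Over the 10 genes called lower against EV, replicate 1 was the highest of the 5 *gdf6Y* samples for 9 genes and replicate 5 the lowest for 8. Without *gdf6Y* replicate 1 the list had 11 calls, the 10 lower ones and *Bcar1* higher, and without *gdf6Y* replicate 5 it had 6.

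**Figure D3:**
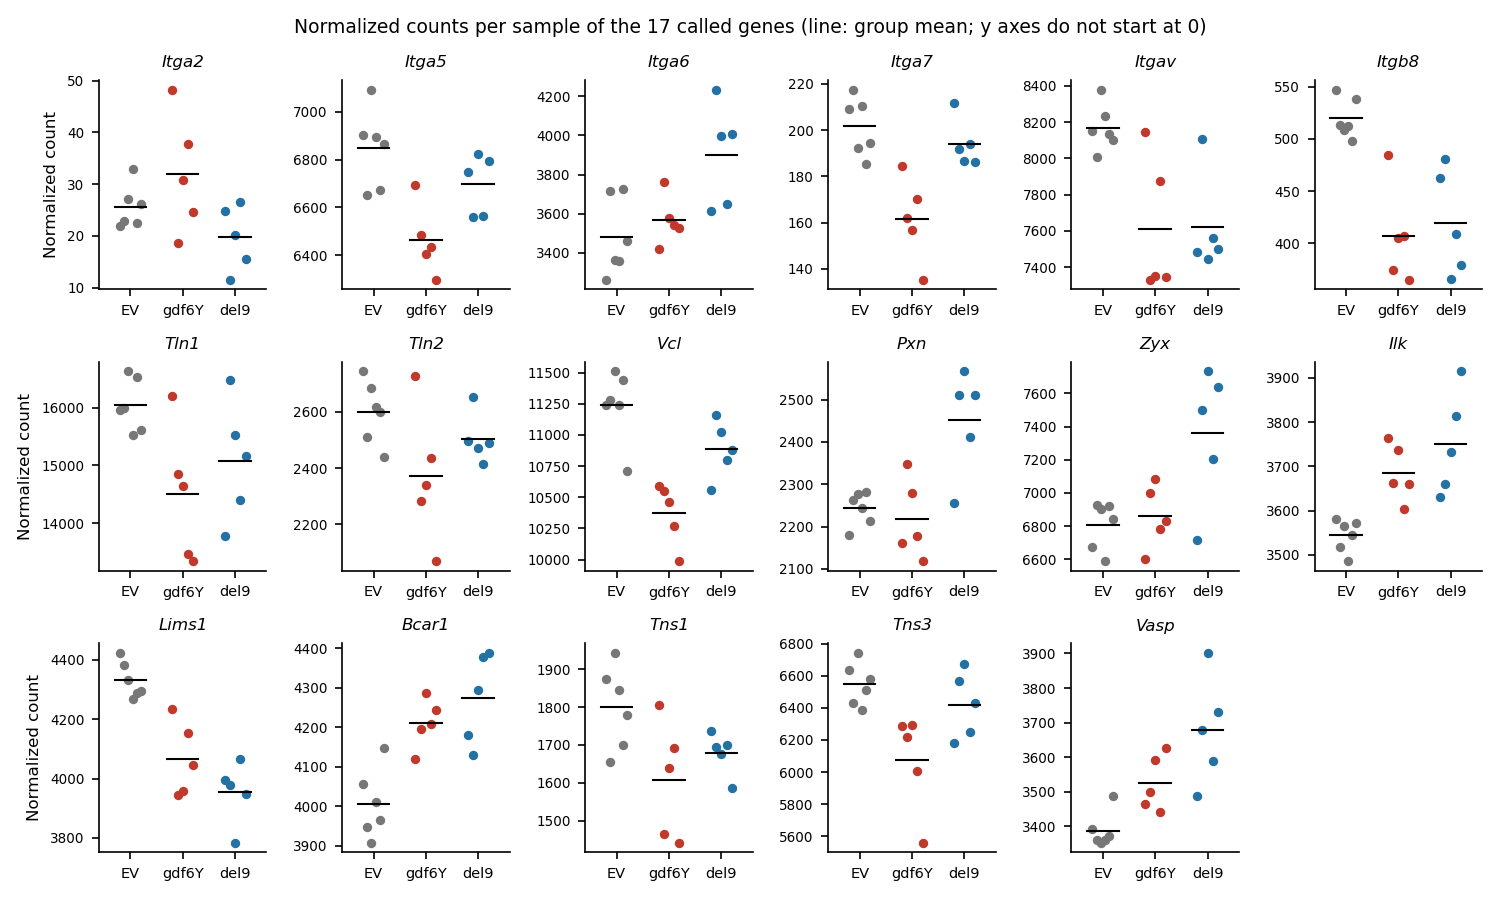
Normalized count of each sample (points, in the order of replicate numbers within a group) and group mean (line) for the 17 genes called in at least 1 comparison, with a y axis of its own for each gene that does not start at 0. For *Itgb8* every *gdf6Y* and del9 sample lies below the EV samples, for *Itga7* the *gdf6Y* samples lie below both other groups, and for *Itgav*, *Tln1*, *Tln2* and *Tns1* the first *gdf6Y* point lies within the EV range.

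Paxillin, zyxin and VASP, which gather on the actin side of the adhesion, were each higher with *gdf6Y del9* than with EV, 3 of 3 genes. Of all genes counted at 1000 or more, 17.2% were called higher in that comparison. None of the 3 was called for *gdf6Y* against EV. *Pxn* (chr5:115644691-115694047) had 2180, 2254 and 2282 counts at the lowest, median and highest with EV, 2161, 2348, 2280, 2179 and 2118 with *gdf6Y*, and 2255, 2512, 2567, 2412 and 2511 with *gdf6Y del9*. del9 replicate 1 lay within the EV range and the other 4 above it. Expressed as log2 fold change, the difference was 0.13 ± 0.03 for *gdf6Y del9* against EV (edgeR, adjusted p = 0.000529) and -0.14 ± 0.03 for *gdf6Y* against *gdf6Y del9* (edgeR, adjusted p = 0.00885, lost without del9 replicate 3 or 5).

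*Zyx* (chr6:42301575-42339894) had 6587, 6872 and 6925 with EV, 6603, 6998, 7083, 6781 and 6831 with *gdf6Y*, and 6714, 7503, 7735, 7202 and 7641 with *gdf6Y del9*. Again del9 replicate 1 alone lay within the EV range. Its log2 fold change was 0.11 ± 0.03 for *gdf6Y del9* against EV (edgeR, adjusted p = 0.000352) and -0.10 ± 0.03 for *gdf6Y* against *gdf6Y del9* (edgeR, adjusted p = 0.103, 0.000985 with the block and 0.431 in DESeq2). *Vasp* (chr7:18988769-19006831), an actin polymerase of these sites, had 3352, 3367 and 3489 with EV, 3463, 3499, 3591, 3442 and 3627 with *gdf6Y*, and 3487, 3680, 3903, 3589 and 3731 with *gdf6Y del9*. For *gdf6Y del9* against EV the log2 fold change was 0.12 ± 0.03 (edgeR, adjusted p = 0.000587). Over the 6 genes called higher with *gdf6Y del9*, del9 replicate 1 was the lowest of its group for 5. All 3 calls held without each replicate in turn.

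Of the kinases and their scaffold, *Bcar1* (chr8:112434491-112470521), which encodes the Src substrate p130Cas, was higher. It had 3907, 3988 and 4148 counts at the lowest, median and highest with EV, 4119, 4196, 4286, 4208 and 4243 with *gdf6Y*, and 4181, 4129, 4294, 4378 and 4389 with *gdf6Y del9*. The highest EV sample reached into both other groups. Fitted log2 fold changes were 0.10 ± 0.03 for *gdf6Y del9* against EV (edgeR, adjusted p = 0.00858, and 0.0589 without del9 replicate 5) and 0.07 ± 0.03 for *gdf6Y* against EV (edgeR, adjusted p = 0.125, and 0.0115 with the block). *Ptk2*, the gene of focal adhesion kinase, and *Src* were not called. Mean counts of *Ptk2* were 6070, 6079 and 6171 and of *Src* 1677, 1685 and 1777 in the order EV, *gdf6Y* and *gdf6Y del9*.

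The complex of Ilk, PINCH and parvin did not move as a unit. *Lims1* (chr10:58159231-58260527), the PINCH gene, had 4269, 4314 and 4425 counts at the lowest, median and highest with EV, 4234, 3945, 3957, 4155 and 4045 with *gdf6Y*, and 3994, 3977, 3783, 4067 and 3947 with *gdf6Y del9*. Every sample with an insert lay below the EV samples. In the fit this was a log2 fold change of -0.09 ± 0.03 for *gdf6Y* (edgeR, adjusted p = 0.0374, lost in 8 of 11 fits without a replicate) and -0.13 ± 0.03 for *gdf6Y del9* (edgeR, adjusted p = 0.000139, held in all 11).

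*Ilk* (chr7:105385782-105392182), by contrast, had 3485, 3555 and 3582 with EV, 3763, 3663, 3737, 3603 and 3661 with *gdf6Y*, and 3630, 3659, 3731, 3813 and 3915 with *gdf6Y del9*. All samples with an insert lay above the EV samples. As a log2 fold change it was 0.08 ± 0.03 for *gdf6Y del9* (edgeR, adjusted p = 0.0341, lost in 7 of 11 fits without a replicate) and 0.06 ± 0.03 for *gdf6Y* (edgeR, adjusted p = 0.326). *Parva* and the kindlin gene *Fermt2*, whose protein activates integrins together with talin, were not called, apart from *Parva* with the length correction described below. Their mean counts were 5375, 5387 and 5568, and 3903, 3796 and 3898 in the order EV, *gdf6Y* and *gdf6Y del9*.

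Genes that were not called are summarized here, leaving out those counted under 10. For *gdf6Y* against EV these were 20 genes, 11 with a positive and 9 with a negative log2 fold change, between -0.18 and 0.34. For *gdf6Y* against *gdf6Y del9* the 27 uncalled genes, 7 positive and 20 negative, lay between -0.26 and 0.18, and for *gdf6Y del9* against EV the 19 uncalled genes, 8 positive and 11 negative, between -0.37 and 0.09. These bounds were set by *Itgb4* and *Itga2* in the first comparison, by *Itga7* and *Itga10* in the second and by *Itga2* and *Src* in the third. For the 6 genes under 10 counts, changes of this size were not detectable at this depth.

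Fold changes against EV varied with exonic length over all genes, and many genes of the list are long. The median log2 fold change of *gdf6Y* against EV was 0.06 over genes with less than 2000 bases of exonic sequence and -0.03 over those with at least 8000, and for *gdf6Y del9* against EV it was 0.06 and -0.02. Between *gdf6Y* and *gdf6Y del9* it was 0.00 and -0.01. Of the 30 genes, 16 had at least 8000 bases, among them 9 of the 10 called lower with *gdf6Y* and, with *gdf6Y del9*, all 5 called lower and 3 of the 6 called higher. After a smooth trend on length was taken out of each library, *Itgb8*, *Itga7*, *Tln1*, *Vcl* and *Itga5* were again called lower with *gdf6Y*, *Parva* was called higher (edgeR, adjusted p = 0.0193), and *Itgav*, *Lims1*, *Tln2*, *Tns1* and *Tns3* were no longer called (edgeR, adjusted p = 0.107 to 0.465). With the replicate block as well, 4 of these 5 were called and *Tln2* was not (edgeR, adjusted p = 0.128). For *gdf6Y del9* against EV, *Itgav*, *Ilk* and *Tns1* lost their calls with the length correction, and *Parva* was called higher (edgeR, adjusted p = 0.000512).

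**Figure D4:**
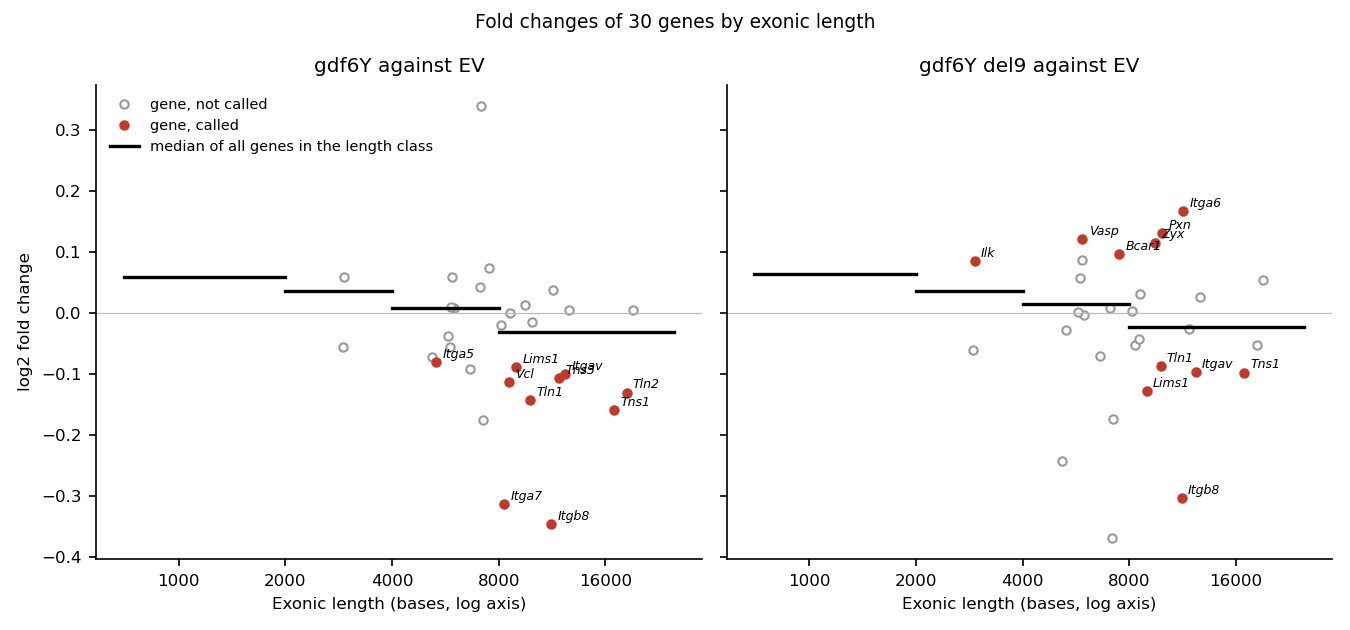
Log2 fold change against EV (y axis) by exonic length (x axis, bases, log axis) for the 30 genes, red where called, with the median of all genes in 4 length classes as black lines. With *gdf6Y* all called genes lie below 0 and 9 of 10 at 8000 bases or more, and with del9 the called genes lie on both sides.

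Other proteins of adhesion sites and the glycoproteins that integrins bind made up 2 further lists, of 50 and 36 genes, set by function. Their counts and values are given without the gene length correction. Over all genes, those with at least 8000 exonic bases ran lower against EV than shorter ones, as described above. Of the 50 adhesion-site genes, 44 had a mean count of at least 10. With *gdf6Y* against EV 5 were lower, among them *Lpp*, *Tns2*, *Flna* and *Rapgef1*, and 0 higher, and with the block 8 and 2. The shares of all genes were 3.38% and 1.7%, and 4.71% and 3.12% with the block, and at 1000 counts or more, without the block, 12.1% and 6.26%. With *gdf6Y* against *gdf6Y del9* 1 was lower, and with the block 6 (0.41% and 1.44% of all genes). With *gdf6Y del9* against EV 4 were higher and 4 lower (4.82% and 4.43% of all genes, and 17.2% and 11.6% of those counted at 1000 or more). The medians of the 44 genes were -0.03, -0.02 and 0.01 in this order, and the last was -0.005 when libraries were scaled by total counts.

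*Lpp*, a LIM protein related to zyxin, averaged 3734 ± 136 counts (SD) over the 6 EV samples, 3071 ± 409 over the 5 *gdf6Y* samples and 3262 ± 297 over the 5 *gdf6Y del9* samples. In log2 fold change this was -0.28 ± 0.03 for *gdf6Y* (edgeR, adjusted p = 2.3e-16) and -0.19 ± 0.03 for *gdf6Y del9* against EV (edgeR, adjusted p = 2.5e-09). *Flna*, a filamin that cross-links actin, had a log2 fold change of -0.11 ± 0.02 (edgeR, adjusted p = 0.000711) against EV and -0.08 against *gdf6Y del9* (edgeR, adjusted p = 0.205, and 3.15e-05 with the block). *Tns2* was lower than EV in both insert groups, with log2 fold changes of -0.16 for *gdf6Y* and -0.11 for *gdf6Y del9* and no overlap of samples. *Pdlim5* was lower with *gdf6Y del9* (-0.13 ± 0.03) and *Parvb*, a second parvin gene, higher (0.11 ± 0.03; lost without del9 replicate 3, edgeR adjusted p = 0.0517).

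Among the glycoproteins that integrins bind, all calls against EV were lower. Of the 36 glycoprotein genes 26 had a mean count of at least 10, and 13 were called lower with *gdf6Y* than with EV and 0 higher (3.38% and 1.7% of all genes, and 12.1% and 6.26% of those counted at 1000 or more). They included *Fn1*, *Thbs1*, *Hspg2*, *Fbn1*, *Tnc*, *Vcam1*, *Ccn4*, *Nid1*, *Agrn*, *Fbln5* and the laminin genes *Lamb1* and *Lamc1*, and the median of the 26 genes was -0.13. With *gdf6Y del9* against EV 13 were also lower and 0 higher (4.43% and 4.82% of all genes, and 11.6% and 17.2% of those counted at 1000 or more), with a median of -0.09. With *gdf6Y* against *gdf6Y del9* 2 were higher (*Thbs2* and *Postn*) and 3 lower (*Hspg2*, *Tnc* and *Nid1*), beside 0.599% and 0.41% of all genes, and with the block 3 and 7, beside 1.12% and 1.44%.

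*Hspg2*, the gene of the basement membrane proteoglycan perlecan, averaged 11131 ± 837 counts (SD) over the 6 EV samples, 8672 ± 1850 over the 5 *gdf6Y* samples and 9702 ± 1528 over the 5 *gdf6Y del9* samples. In log2 fold change this was -0.36 ± 0.03 for *gdf6Y* against EV (edgeR, adjusted p = 1.11e-27) and -0.16 ± 0.03 for *gdf6Y* against *gdf6Y del9* (edgeR, adjusted p = 5.53e-05, and 0.086 without *gdf6Y* replicate 4, 0.0753 without *gdf6Y* replicate 5 and 0.575 without del9 replicate 2). *Fn1*, the fibronectin gene and the ligand of α5β1, averaged 90067 ± 3695, 78630 ± 10847 and 81858 ± 8292 in the same order of groups, with a log2 fold change of -0.19 ± 0.02 for *gdf6Y* against EV (edgeR, adjusted p = 1.51e-12). The SD of *Hspg2* and *Fn1* was wide with *gdf6Y*, and the SE and p-values given are those of the main test only. For *Tln1* against EV, the SE was 0.026 in the main test, 0.038 after filterByExpr and 0.041 in DESeq2. Values of *Hspg2* and *Fn1* against EV under those settings are not given here. *Thbs1*, a thrombospondin known to activate latent TGF-beta, was lower in both insert groups without overlap, by -0.23 ± 0.02 for *gdf6Y* and -0.25 ± 0.02 for *gdf6Y del9*. *Thbs2* was lower with *gdf6Y del9* than with EV (-0.19 ± 0.02) and higher with *gdf6Y* than with *gdf6Y del9* (0.15 ± 0.03; edgeR, adjusted p = 3.47e-06). *Tnc*, the gene of tenascin-C, was lower with *gdf6Y* than with EV (-0.24 ± 0.03) and than with *gdf6Y del9* (-0.16; edgeR, adjusted p = 0.00102, and 0.0582 without del9 replicate 2). *Fbn1* fell by 0.30 ± 0.03 with *gdf6Y* against EV on the log2 scale (edgeR, adjusted p = 1.46e-15).

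**Figure D5:**
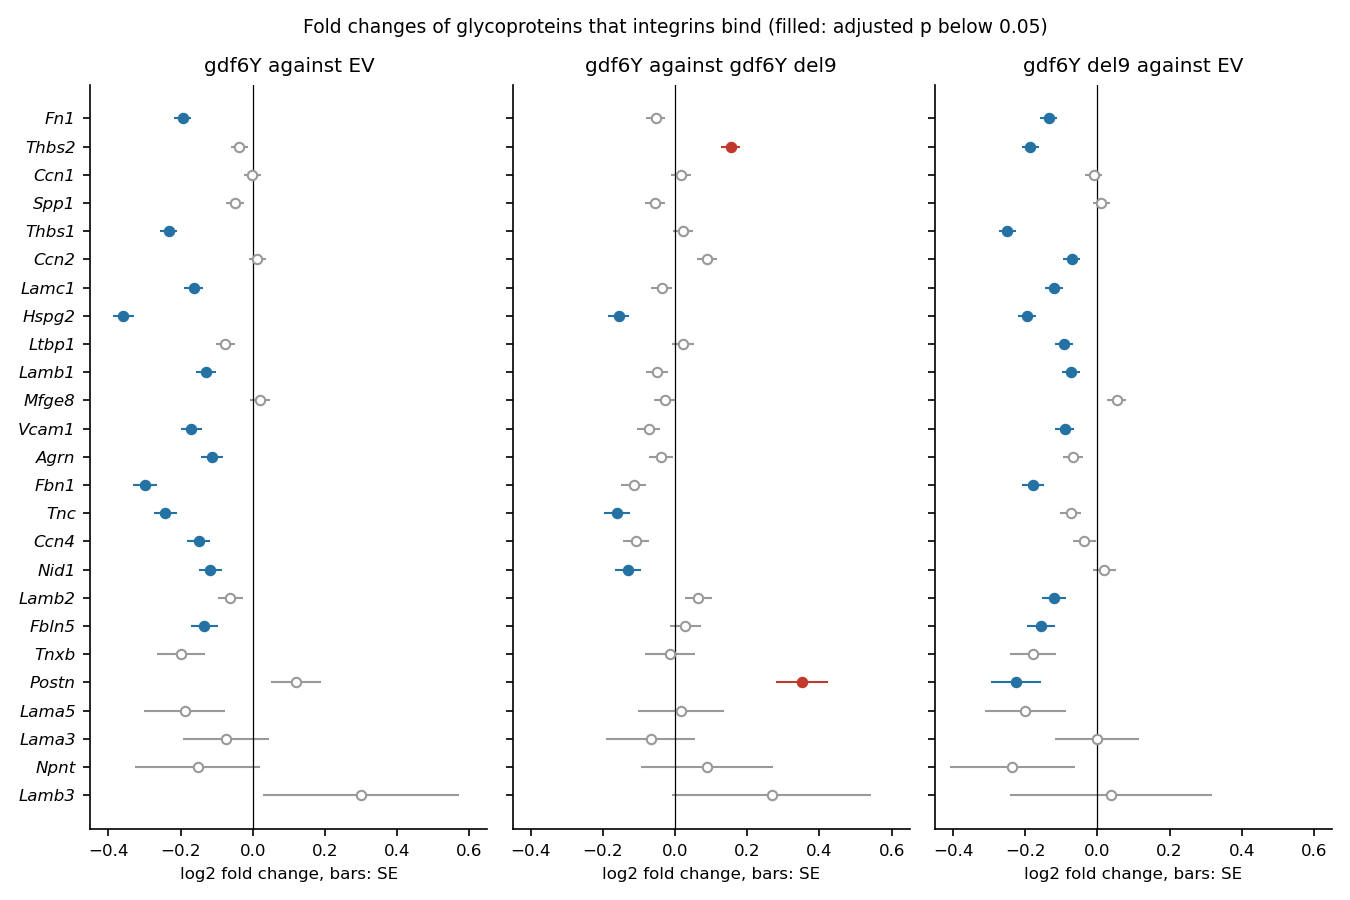
Log2 fold change (x axis, bars: SE) of 25 of the 26 glycoprotein genes with a mean normalized count of at least 10, ordered by their EV count, in the 3 comparisons, with filled points for an adjusted p below 0.05. The 12 filled points of the first panel and the 13 of the third all lie left of 0, and in the second panel 2 lie right and 3 left of it.

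Promoter windows of 300 bases, most of them upstream of a RefSeq start, were searched on both strands for 3 motifs: the CArG box, which serum response factor binds in many genes of the actin cytoskeleton, CATTCC, the core site of TEAD factors, and GGCGCC, the core of a BMP-type Smad site. The table (RefSeq, GRCm38.p6) held 34 promoters of 28 of the 36 genes. A CArG box was found in 3 of the 34 (*Vcl*, *Fermt2* and *Itgb6*) and in 1.63% of all 32851 promoters, CATTCC in 4 of the 34 and in 14.7% of all, and GGCGCC in 5 of the 34 and in 11.9% of all. The *Vcl* promoter held all 3 motifs, and the call of *Vcl* against EV held without each replicate in turn, so its 3 windows are shown, with the window of *Ilk*, the other called gene with a match. Motif letters are in capitals, and positions are those of the same bases in GRCm39.

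*Vcl*, CArG box, chr14:20979229-20979258, + strand, upstream of the gene: cccactatgcCCTTATAAGGagcgccccgc
*Vcl*, CATTCC on the reverse strand, chr14:20979311-20979340, + strand, upstream of the gene: gcccctcccttgGGAATGggggcggggcgg
*Vcl*, GGCGCC, chr14:20979439-20979468, + strand, at the first exon: gtgagagggcggGGCGCCtgtggggctagt
*Ilk*, GGCGCC, chr7:105385890-105385919, + strand, in an annotated exon: tcccccggagaaGGCGCCtgcggcccgagt

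*Vcl* was lower and *Ilk* not called with *gdf6Y* against EV, and *Fermt2*, with a CArG box as *Vcl* has, was not called in any comparison. *Itgb6* had too few reads to compare. *Itgb8* and *Tln1*, with the smallest adjusted p of the list for *gdf6Y* against EV, had none of the 3 motifs in their windows. A match describes these letters only and is no evidence of binding.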

How the data were processed

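Poly(A)-selected, directional libraries with molecular identifiers were made from 16 samples of TM4 cells (6 EV, 5 *gdf6Y*, 5 *gdf6Y del9*), and replicate 6 of each insert group was left out by the authors for quality. The deposited values are read counts per mouse gene, which the authors made with STAR 2.7.10a on GRCm39, UMI-tools and featureCounts 2.0.3, counting uniquely mapped reads on the annotated strand without normalization. Total counts ran from 21486850 to 26444903 per sample, and no pair of replicates agreed within sampling noise (chi-square per gene 1.41 to 11.5 over 35 pairs).

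From these counts, edgeR 4.0.16 in R 4.3.3 (TMM scaling, quasi-likelihood test, 2 groups per model, genes with at least 1 count) gave two-sided p-values, adjusted over all genes by the Benjamini-Hochberg method and called below 0.05. Alternatives were DESeq2 1.42.0, its size factors, scaling by total counts, the edgeR 4 dispersion, filterByExpr, a minimum of 10 counts required of each sample, a common model of the 3 groups, a replicate block, a gene length correction (a smooth trend of counts on exonic length removed from each library), both together, and leaving out each replicate. Same-numbered samples deviated together for *gdf6Y* and EV (correlations 0.345, 0.417, 0.109, 0.251 and 0.215 for replicates 1 to 5, over 10075 genes) and for *gdf6Y* and *gdf6Y del9* (0.22, 0.303, 0.281, 0.381 and 0.254), so blocked values stand beside those results, but not for *gdf6Y del9* and EV, where replicate 3 had 0.0529. The pairing comes from the numbers in the labels and this check. EV replicate 6 had no partner. Exonic lengths and positions came from GENCODE release M39 on GRCm39, which is not the annotation release the authors counted with. Genes named with every sample were those called in at least 1 comparison, ordered by smallest adjusted p, up to 15, and each further list was given with at most 6 genes. Values of 2 genes of those lists are not reported here, though they are in the lists' counts and medians. The 36 genes and all lists were chosen with earlier results of these data known.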

Additional observations from a re-analysis of the deposited data

Results flagged for a closer look

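In the 30 genes with a mean normalized count of at least 10, each group of samples was looked at for a sample that stood apart from the rest by Dixon's criterion at the 95% level, which chance alone meets in about 1 of 20 groups. Over 90 groups, 4.5 would be expected and 4 were found. *Itgav* in del9 replicate 2 had 8105 counts beside 7447 to 7559 in the other 4 samples (gap to range 0.83). *Itgb7* in EV replicate 5 had 62.5 beside 40.8 to 48.7 (0.635). EV replicate 6 stood apart for *Vcl*, with 10715 beside 11238 to 11513 (0.655), and for *Vasp*, with 3489 beside 3352 to 3392 (0.71).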

How the results depend on the processing

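Shares of all genes called are given above for the main test and, in the comparisons of *gdf6Y*, for the block. Counts below under other settings have no such share beside them. For *gdf6Y* against EV, 10 of the 36 genes were called, 6 with the gene length correction and 11 with the replicate block. Without a replicate the count was between 6 (without *gdf6Y* replicate 5) and 11 (without *gdf6Y* replicate 1). For *gdf6Y* against *gdf6Y del9*, 3 were called, but 0 with DESeq2, with filterByExpr and with at least 10 counts in every sample (8 at an unadjusted p below 0.05 in each), 1 with the edgeR 4 dispersion, 5 with all groups in a common model, 8 with the replicate block and 6 with the block and the length correction, and from 0 (without del9 replicate 3 or 5) to 5 (without del9 replicate 1) without a replicate. It was 1 without *gdf6Y* replicate 4 or del9 replicate 2. For *gdf6Y del9* against EV, 11 were called, and 8 to 11 without a replicate. DESeq2, filterByExpr and the minimum of 10 counts gave 9 each, without *Tln1* and *Tns1* (adjusted p = 0.058 and 0.0611 in DESeq2). The numbers did not pair these samples, and the block gave 13 calls, adding *Src* higher and *Vcl* lower. In each of the 3 comparisons, at least 1 replicate number correlated more with another number than with its own (for *gdf6Y* and EV replicate 3, 0.187 beside 0.109, and replicate 5, 0.262 beside 0.215, and for *gdf6Y* and *gdf6Y del9* replicate 2, 0.305 beside 0.303). In the first 2 comparisons, the block changed no call of the 36 genes other than those given above. Of 508 values of single genes under other settings 454 kept direction and side of the threshold, 39 lost and 15 gained a call, and of 544 without a replicate 494 kept both, 46 lost and 4 gained a call, with no reversal. Of the glycoprotein genes, 5 were called for *gdf6Y* against *gdf6Y del9*, but 1 with DESeq2 and 0 after filterByExpr (7 at an unadjusted p below 0.05 in each). Depth limits the 6 genes counted under 10, and the causes of these changes were not tested.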
